A study of Mus musculus with 5 samples.

Results

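The regions described here are PU.1 binding sites that lie far from any protein-coding gene. PU.1 is the ETS-family transcription factor encoded by Spi1. The sites were mapped by chromatin immunoprecipitation and sequencing (ChIP-seq) with the antibody T-21 in AML-246, a p53-/- acute myeloid leukaemia, labelled C57BL/6, that carries a GFP-linked short hairpin RNA against PU.1. The PU.1 High group has 3 libraries from spleens of leukaemic recipients after 2 days on doxycycline, which shut off the hairpin so that endogenous PU.1 returned. The PU.1 Low group has 2 libraries from spleens of leukaemic recipients without doxycycline. All libraries of both groups are of this 1 leukaemia with its p53 loss and its hairpin, and the labels call them technical replicates. The deposited data are 1 list of 11111 summits for the whole series, named as high against low. By that name it addresses where PU.1 binding in the PU.1 High group exceeded that in the PU.1 Low group. A stretch or gene without a site is therefore not shown to lack PU.1 binding.

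Of the 10920 summits on chromosomes 1 to 19, 1450 (13.3%, 95% Wilson interval 12.7 to 13.9) were inside no protein-coding gene and more than 50 kb from the nearest end of one. They are called distal sites below. The choice used position alone, so the scores were not part of it. A score is the authors' −log10 value of each summit, which grows with the certainty of the call and with depth and is no fold change. Whether it is a p or a q value is not stated. There is no value per library, so no spread between libraries can be given, no difference between treated and untreated mice was tested, and the intervals cover counting error only. Sites lie in groups, so those intervals are narrower than the true uncertainty.

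PU.1 recognises a DNA core with the letters GGAA and can bind it in closed chromatin, where it helps other factors to open enhancers. Enhancers are regulatory elements that act on promoters over a distance, and many genes that steer blood cell fate stand beside long gene-free stretches that hold theirs. Nearness alone does not say which gene an element acts on, so the genes below are named as neighbours.

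The DNA under a distal summit can be shown where the summit fell in a RefSeq promoter window of a noncoding gene (GRCm38.p6, the assembly of mm10). For 14 distal summits such a window held the summit with 50 bases on each side. Of these, 6, chosen after their values were seen, are printed to show how often and how near to the summit the GGAA core stood. They are the windows beside Id2, Cebpb, Ptger4 and Bach2, 4 genes described below, the window whose GAGGAA core covers the summit, and the highest-scoring one. Each runs 5′ to 3′ on the strand given, with the summit at base 51. Capitals mark each GGAA, or TTCC where the core is on the other strand.
Gm46343, 207.5 kb from Id2, chr12:25303587-25303687, plus strand, score 5.91: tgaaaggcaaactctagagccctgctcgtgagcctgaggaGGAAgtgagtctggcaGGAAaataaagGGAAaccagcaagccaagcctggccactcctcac
Gm32287, 87.6 kb from Cebpb, chr2:167777961-167778061, minus strand, score 12.98: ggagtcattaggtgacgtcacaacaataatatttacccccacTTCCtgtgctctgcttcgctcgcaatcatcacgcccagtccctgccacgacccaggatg
5430437J10Rik, 252 kb from Ptger4, chr15:5496102-5496202, plus strand, score 12.3: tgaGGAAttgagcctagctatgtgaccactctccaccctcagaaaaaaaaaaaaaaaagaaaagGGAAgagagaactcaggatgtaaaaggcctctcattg
Gm52717, 77.4 kb from Bach2, chr4:32160975-32161075, minus strand, score 20.2: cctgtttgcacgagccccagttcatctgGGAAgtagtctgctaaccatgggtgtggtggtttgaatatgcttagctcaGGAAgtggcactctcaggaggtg
Gm35891, 95.5 kb from Noct, chr3:51128933-51129033, minus strand, score 15.5: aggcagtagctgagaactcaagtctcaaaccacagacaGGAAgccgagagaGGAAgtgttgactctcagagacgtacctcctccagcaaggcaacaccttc
Gm31828, 146.1 kb from Tusc1, chr4:93481517-93481617, minus strand, score 20.4: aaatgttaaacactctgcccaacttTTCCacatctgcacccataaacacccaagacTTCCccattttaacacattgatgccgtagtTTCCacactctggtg

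A GGAA core on either strand was present in 13 of the 14 distal windows (92.9%), against 402 of 405 windows around other summits (99.3%) and 68.1% of equally long centres of 11311 noncoding gene windows. In 10 of the 14 (71.4%) the nearest core stood within 10 bases of the summit, against 78.8% around other summits and 25.4% for the centres of noncoding gene windows. The window without the core lay at Gm33326. The longer core GAGGAA, added after the files were seen, was found in 5 of the 14 distal windows (35.7%), against 35.8% around other summits and 10.5% of the noncoding gene centres. GAGGAA holds GGAA, so the counts overlap. At Gm46343, beside Id2, the nearest GAGGAA stood 7 bases from the summit, and at Gm35891 it covered the summit. GAGGAAGT occurred in 2 of the 14 distal windows, in 10.4% of windows around other summits and in 1.13% of noncoding gene centres. Of the other motifs searched on both strands, the RUNX letters TGTGGT were in 3 of the 14 distal windows, against 6.67% around other summits and 7.34% of noncoding gene centres. TTGCGCAA and TTGCNNCAA (C/EBP), TGACTCA or TGAGTCA (AP-1) and the IRF element were in 0 of the 14, where at most 2.28% of noncoding gene centres held any one of them. A match of letters is a description and not a shown binding site.

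Distal sites were sparse and became sparser with every step away from genes. Distal sequence made up 863 Mb, or 35.5% of the 2429 Mb between the outermost gene ends, and held 1449 of the 1450 sites, the remaining 1 lying beyond the last gene. This is 1.68 sites per Mb (95% Poisson interval 1.59 to 1.77), against 4.49 per Mb over all sequence, a ratio of 0.374. The rate was 3.52 per Mb at 50 to 100 kb, 2.39 at 100 to 200 kb, 1.07 at 200 to 500 kb and 0.200 beyond 500 kb. Outside genes but closer, it was 6.83 at 1 to 10 kb and 5.11 at 10 to 50 kb. No 2 of these neighbouring bands had overlapping intervals. Assembly gaps were not removed, and how much of the deepest bands could not be mapped was not measured.

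**Figure D1:**
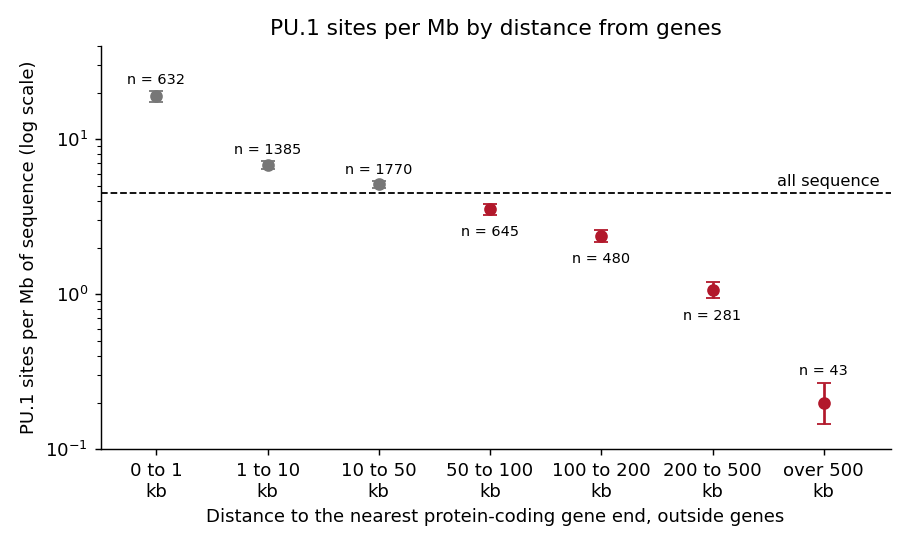
PU.1 sites per Mb of sequence outside protein-coding genes (vertical axis, log scale) against distance to the nearest gene end (horizontal axis). Red points are the distal bands, grey points the bands within 50 kb, bars are 95% Poisson intervals, n is the number of sites and the dashed line is the rate over all sequence (4.49 per Mb). The rate declines at each step, to 0.200 per Mb beyond 500 kb.

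The median distance of distal sites to a gene end was 110.3 kb, with quartiles of 71.2 and 186.5 kb. Of the 1450, 645 (44.5%) stood at 50 to 100 kb, 481 (33.2%) at 100 to 200 kb, 281 (19.4%) at 200 to 500 kb and 43 (2.97%) beyond 500 kb. The sites just inside the limit stood 50.08 kb from Zfp36l1 (score 4.29), 50.08 kb from Dusp22 (9.24) and 50.1 kb from Chd7 (19.1). Just outside it were sites 49.9 kb from Dkk2 (9.57), 49.8 kb from Ado (14.7) and 49.6 kb from Sst (14.2).

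The scores of distal sites were close to those of other sites and no lower at the median. The median score of distal sites was 8.72 (95% order-statistic interval 8.59 to 9.10), with quartiles of 5.78 and 12.3 and a range of 1.44 to 36.6, against 8.45 (8.36 to 8.64) for the 9470 other sites. The difference of the medians was 0.28 on the −log10 scale, and these 2 intervals overlap. The class next to it, sites outside genes at 1 to 50 kb, had a median of 8.36, and sites within 100 bp of a gene end had 7.63, while sites more than 10 kb deep inside genes had the same median as distal sites, 8.72. A score of at least 10 was reached by 573 distal sites (39.5%, Wilson interval 37.0 to 42.1), against 37.5% of all sites. A score of at least 20 was reached by 64 (4.41%, 3.47 to 5.597), against 3.93% of all sites. Within the distal sites the median was 8.85 at 50 to 100 kb, 8.64 at 100 to 200 kb, 8.64 at 200 to 500 kb and 9.24 beyond 500 kb, so the number of sites and not their score declined with distance.

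**Figure D2:**
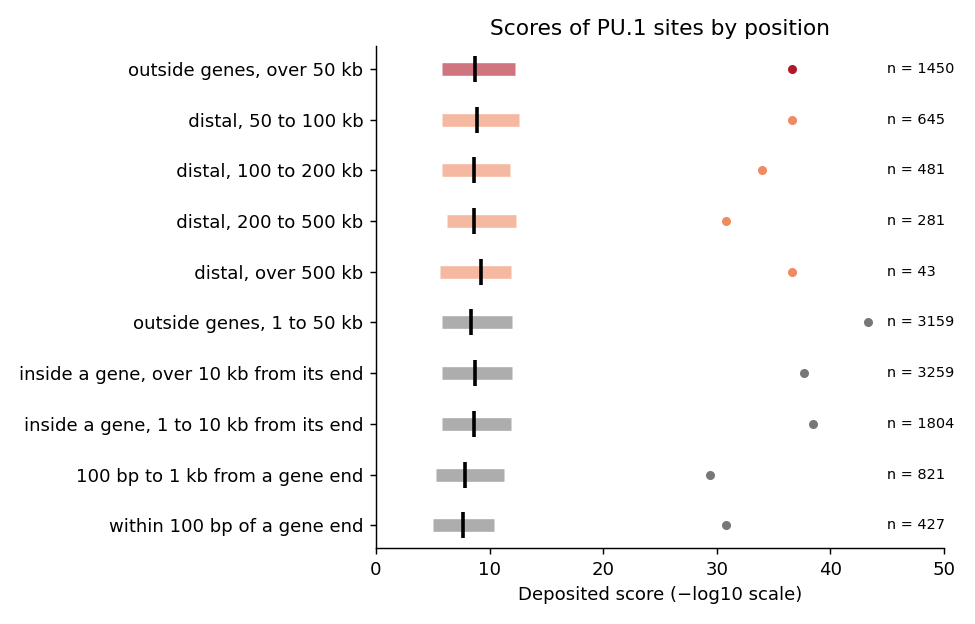
Deposited scores (horizontal axis, −log10 scale) of PU.1 sites by position, with distal sites in red on top, their distance bands in orange and the other positions in grey. Thick bars span the quartiles, black ticks are medians, dots are the highest scores and n is the number of sites. The distal median of 8.72 and its quartiles lie close to those of sites inside genes, and the 2 classes nearest to gene ends lie lowest.

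The 10 highest-scoring distal sites scored between 29.6 and 36.6. The top score of 36.6 was shared by a pair. One (chromosome 7, 114347194) stood 68.0 kb from Pde3b, a phosphodiesterase gene, and 71.1 kb from Psma1, a proteasome subunit gene. The other (chromosome 3, 48101073) was the distal site farthest from any protein-coding gene, 1642 kb from Pcdh18, a protocadherin gene, and 1653 kb from Pabpc4l, with the next site of any kind 2282 kb away.

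The third (chromosome 2, 160210724, score 34.0) lay 100.7 kb from the gene model Gm826. Sites of score 32.3 stood 100.2 kb from Smim20, in the gap it shares with the Notch pathway transcription factor gene Rbpj, and 79.8 kb from Arf6, a small GTPase gene of membrane traffic. Next came sites beside Rassf9 (31.6), Id2 and Adgrl2 (30.8 each), Cacna2d1, in the gap it shares with the growth factor gene Hgf, and Cyp7b1 (29.6 each).

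After the Pcdh18 site, the farthest sites belonged mostly to 1 gene. At 1032, 1068, 1128 and 1134 kb from Zeb2 stood 4 sites, with scores of 4.35, 6.57, 10.8 and 14.1. One more, with a score of 11.2, lay 1066 kb from Zfp386 in the immunoglobulin heavy chain locus, whose gene segments are not counted as protein-coding in the table.

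A few deserts, here the gaps between neighbouring protein-coding genes, held many distal sites while most held 0. Of 2495 gaps that hold distal sequence, 590 (23.6%) carried at least 1 distal site and 1905 carried 0. The 18 gaps with 10 or more held 230 sites (15.9%) on 1.88% of the distal sequence, and the 78 gaps with 5 or more held 597 (41.2%) on 6.24% of it. These gaps were picked by their counts, so the shares are a description. Gaps with over 1 Mb of distal sequence had 0.557 sites per Mb, those with 0.5 to 1 Mb had 1.69, those with 0.1 to 0.5 Mb had 3.15 and shorter ones 5.27. The longest gaps with 0 sites were those from Pcdh20 to Pcdh9 (4542 kb), Celf4 to Pik3c3 (4511 kb), Cntnap5b to Cdh20 (4278 kb), Tenm3 to Aga (3989 kb) and Slc39a10 to Tmeff2 (3975 kb). Pcdh20, Pcdh9, Cntnap5b, Cdh20 and Tenm3 encode cell adhesion proteins.

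The fullest desert lay between Id2 and Rnf144a on chromosome 12 (25096093 to 26306793). Id2 encodes an inhibitor of basic helix-loop-helix transcription factors that acts in dendritic and lymphoid cell development. The gap held 19 distal sites, or 17.1 per Mb (95% interval 10.3 to 26.7), of which 17 were nearer to Id2. These stood 111.9 to 552.8 kb beyond the 5′ end of Id2, with scores of 2.85 to 30.8 and a median of 9.57. The highest, at 25378330, was 282.2 kb from Id2, and the next highest were 19.4 at 205.1 kb and 18.01 at 302.8 kb. The sites on either side of the highest scored 9.57 and 2.85. Of the 17, 15 lay between 111.9 and 342.4 kb, and 0 sites lay within 10 kb of Id2 itself.

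Between Zeb2 and Acvr2a on chromosome 2 (45117443 to 48814108) were 17 distal sites, 13 of them nearer to Zeb2 and all 13 on its 5′ side. Zeb2 encodes a zinc finger repressor needed for monocyte and dendritic cell fates. Within 80.1 to 229.1 kb of Zeb2 stood 8 sites, led by scores of 25.2 at 118.9 kb and 17.4 at 113.5 kb. A single site of 15.5 followed at 575.7 kb, then the 4 farthest ones given above. The desert is long, so its rate of 4.73 per Mb (2.75 to 7.57) was the lowest among the 10 fullest gaps.

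Beside Klf4, the gene of a zinc finger activator of monocyte differentiation, all 14 distal sites of the gap to Actl7b (chromosome 4, 55532476 to 56740004) stood within 65.8 to 431.7 kb of its 5′ end, and 0 lay in the other part of the gap. Their scores ran from 3.85 to 19.3, with a median of 8.92. They formed 3 groups, 5 sites at 65.8 to 132.5 kb with the highest score at 132.5 kb, 5 at 265.7 to 283.6 kb led by 14.8 and 13.98, and 3 at 392.7 to 431.7 kb with scores of 7.48 to 9.07, with 1 site between the first groups. As at Id2, 0 sites lay within 10 kb of the gene.

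The gap between Dusp10, a MAP kinase phosphatase gene, and the homeobox gene Hlx (chromosome 1, 184075637 to 184727142) held 14 sites, 12 of them on the Hlx side at 95.3 to 318.6 kb beyond its 3′ end. High and low scores stood side by side, with 17.5, 17.1, 13.0 and 12.3 beside 6 sites of 2.06 to 4.99. Between Pard3, a cell polarity gene, and Nrp1, the gene of the semaphorin and VEGF receptor neuropilin, stood 15 sites (23.2 per Mb), of which 8 were nearer to Nrp1 and the highest score was 15.7.

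**Figure D3:**
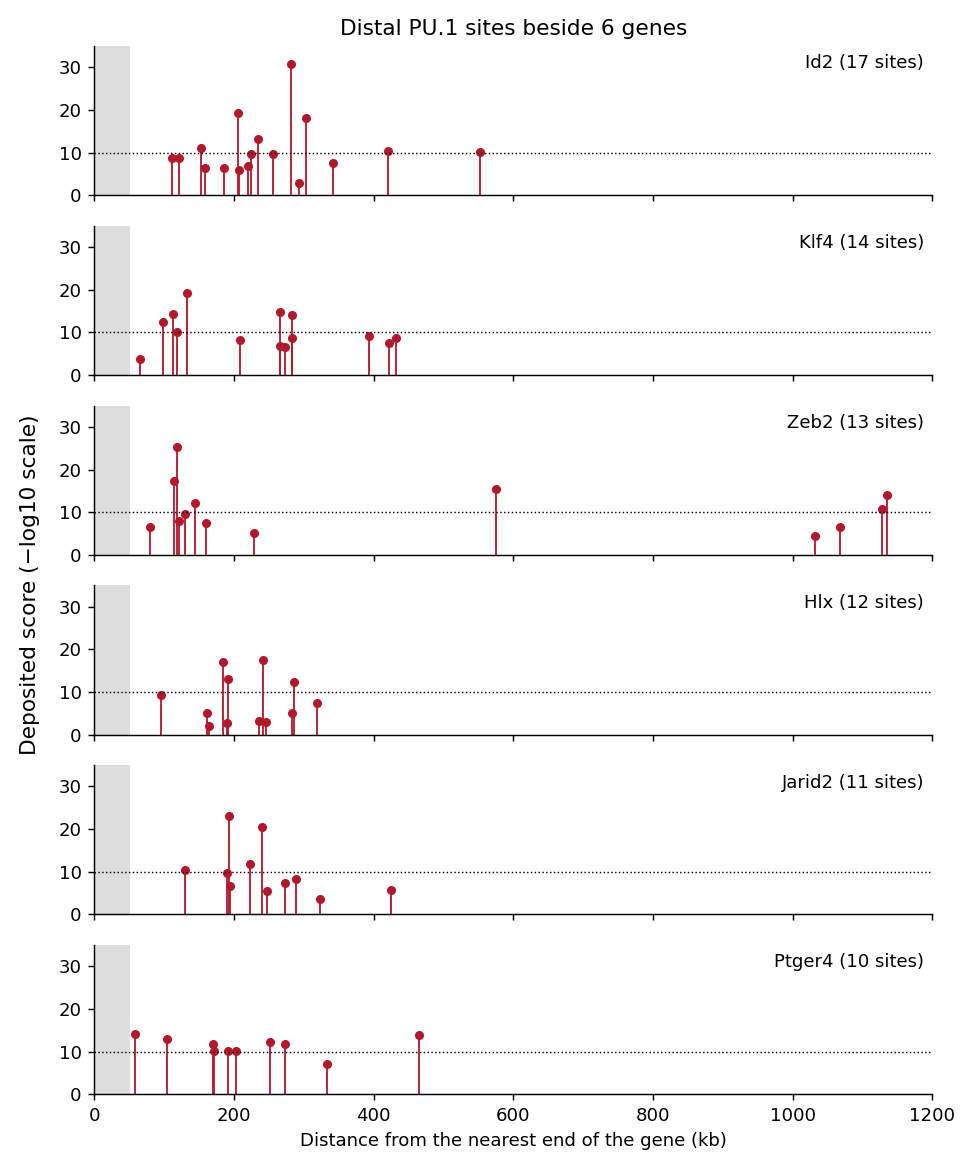
Distal PU.1 sites nearest to Id2, Klf4, Zeb2, Hlx, Jarid2 and Ptger4, by distance from the nearest end of the gene (horizontal axis, kb) and deposited score (vertical axis, −log10 scale). Each line and dot is 1 site, the grey band is the first 50 kb, where sites are not distal, and the dotted line is a score of 10. Sites of Id2 begin at 111.9 kb, those of Jarid2 at 129.6 kb, and those of Zeb2 reach 1134 kb.

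Further genes of mixed function were nearest to many distal sites. Adgrl2, an adhesion receptor gene, had 15, with 9 on its 3′ side and 6 on its 5′ side and a highest score of 30.8 at 427.8 kb. Thbs1, the thrombospondin gene, had 11 at 85.9 to 269.4 kb, with scores of 25.8, 22.8 and 16.6 in front. Jarid2, the gene of a subunit of the Polycomb repressive complex, had 11, all on its 5′ side at 129.6 to 425.4 kb, with 23.04 and 20.6 the highest. Ptger4, the gene of a prostaglandin E2 receptor, had 10, all on its 5′ side, and 9 of them scored at least 10, with a median of 11.8. The 10 sites of Tbl1xr1, a corepressor subunit gene, reached 592.1 kb. Trib1, the gene of a pseudokinase that promotes degradation of the myeloid factor C/EBPα, had 10 at 51.1 to 174.5 kb with none above 10.4, and 4 more of its gap lay nearer to 4933412E24Rik, for a rate of 54.3 per Mb, the highest among the 10 fullest gaps.

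The 710 genes that were nearest to at least 1 distal site make up 17.3% of the 4103 protein-coding genes that border distal sequence. Of the 710, 411 had 1 such site and 61 had 5 or more. A site in the gene or within 10 kb of it was carried by 321 of the 710 (45.2%, Wilson interval 41.6 to 48.9), against 24.1% (22.7 to 25.6) of the 3393 bordering genes nearest to 0 distal sites and 27.8% of all bordering genes. The genes with distal sites were also longer (median span 48.4 against 39.0 kb) and had more distal sequence beside them (median 0.144 against 0.0623 Mb), and the part of either in the difference was not tested. Of the 61 genes with 5 or more distal sites, 30 (49.2%, 37.1 to 61.4) carried one. Among the 10 genes with most distal sites, Id2, Klf4, Thbs1, Jarid2 and Ptger4 had 0 sites in or within 10 kb of them, Adgrl2 and Hlx had 3 each, and Zeb2, Tbl1xr1 and Trib1 had 2 each.

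For 1113 distal sites the strand of the nearest gene was known from its promoter window. The 5′ end was the nearer one for 655 of them (58.9%, Wilson interval 55.9 to 61.7), against 52.8% of the distal sequence with a known strand. The median score was 9.24 on the 5′ side and 8.43 on the 3′ side.

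Genes of haematopoietic transcription factors were often the nearest to distal sites. This list and those below were chosen with earlier results of these data known, and their rates were added after values were seen. Their counts and rates are therefore a description. The intervals of the lists take genes or sites as independent, were not adjusted for the number of lists and are no test. Of the 48 in the list, 27 bordered distal sequence, and 17 of these (63.0%, Wilson interval 44.2 to 78.5) were the nearest gene of at least 1 distal site, against 17.3% of all bordering genes. They accounted for 80 sites on 8.51 Mb of distal sequence, or 9.40 per Mb (7.45 to 11.7), against 1.68 per Mb for all genes. Without Id2, Klf4 and Zeb2 the rate was 6.45 per Mb (4.51 to 8.92). The median score of the 80, 8.68, was close to that of all distal sites.

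In this list, Cebpb, the gene of a C/EBP factor of macrophages and emergency granulopoiesis, had 3 sites beyond its 3′ end, with scores of 2.29 at 63.6 kb, 12.98 at 87.6 kb and 20.5 at 109.4 kb. Bcl6, the gene of a repressor of lymphoid and myeloid cells, had 4 sites at 114.2 to 176.9 kb with scores of 8.18 to 18.5, all on its 5′ side. Runx1, a core regulator of blood stem cells that is mutated in leukaemia, had 4 on its 5′ side at 193.8 to 229.6 kb, with scores of 4.29 to 10.8. Bach2, the gene of a repressor in B cells, had 2, and the one of score 20.2 is the summit in the Gm52717 window printed above. Jun had 3 sites, Egr2 2 and Fos 1, with 10.8 their highest score. Among the 10 members that border distal sequence with 0 such sites nearest to them were Runx3, Irf8, Zeb1, Ets1, Erg, Etv6, Ikzf2, Nr4a2 and Nfil3.

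Distal sites also stood beside genes of inflammatory signalling and its inhibitors. Of 10 bordering genes in the list of inflammatory cytokines and NF-kB feedback, 5 (Wilson interval 23.7% to 76.3%) were nearest to a distal site, against 17.3% of all bordering genes, with 15 sites on 0.881 Mb, or 17.02 per Mb (9.53 to 28.1). Tnfaip3, the gene of the NF-kB inhibitor A20, had 6 sites at 53.1 to 155.4 kb from its 5′ end, of which the one at 144.96 kb scored 18.1 and the others 3.41 to 8.36. Nfkbiz, the gene of an atypical IkB protein, had 5 with scores of 3.48 to 12.6, and the cytokine genes Il12b and Il6 had 2 and 1. Of 16 bordering genes of signalling inhibitors and phosphatases, 8 (28.0% to 72.0%) were nearest to a distal site, with 22 sites and a rate of 4.66 per Mb (2.92 to 7.06). Dusp6, the gene of an ERK phosphatase, had 8 beyond its 3′ end, with 18.5 at 62.2 kb and 16.7 at 155.0 kb the highest. Dusp4, the gene of another MAP kinase phosphatase, had 1 of 19.1 at 63.2 kb.

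Genes of mature myeloid function gave few bordering genes to count. Of all 20665 protein-coding genes, 4103 bordered distal sequence. Of 30 monocyte and macrophage genes, 6 did, a similar share, and Ly86 was the 1 with distal sites (3, highest score 9.71). Of 30 neutrophil genes, 2 did, and Cxcr4, the receptor that retains cells in the marrow, had 6 sites at 50.2 to 221.3 kb from its 5′ end with scores of 3.68 to 13.9. Of 31 pattern recognition, Fc and lectin receptor genes, 4 did and 0 had a distal site. In the list of chemokines and receptors, Cxcr4 was the 1 of 8. The Wilson intervals were 3.01% to 56.4% for monocyte and macrophage genes and 9.45% to 90.5% for neutrophil genes. They were 0% to 49.0% for pattern recognition, Fc and lectin receptor genes and 2.24% to 47.1% for chemokines and receptors. Each interval holds the 17.3% of all bordering genes, so these counts show neither a lower nor a higher share.

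In the stem cell and leukaemia list, 4 of 15 bordering genes had distal sites (26.7%, 10.9 to 52.0), an interval that holds the 17.3% of all bordering genes. Myc, the growth regulator, had 6 within 56.1 to 444.3 kb, of which 11.9 and 10.8 were the highest. Sox4 had 5 beyond its 3′ end with scores up to 20.4 at 332.1 kb. Ctnnb1 and Kit had 1 each, with 8.36 and 1.98. Among bordering genes with 0 were Meis1, Pbx3, Mecom, Myb, Lmo2 and Cd34. Of 10 bordering cell cycle and apoptosis genes, 3 had distal sites (30.0%, 10.8 to 60.3), where the interval again holds 17.3%. Their rate was 5.16 per Mb (2.36 to 9.80), against 1.68 per Mb for all genes. The D-type cyclin genes Ccnd1 and Ccnd2 had 5 and 3, with 25.6 at 90.9 kb from Ccnd1 and 19.1 the highest for Ccnd2. Of 7 bordering p53 targets, 4 had distal sites (57.1%, 25.05 to 84.2), against 17.3% of all bordering genes. The 4 were Rrm2b, Plk2, Fas and Perp with 1 site each, none scoring above 9.71. The rate of the p53 targets was 3.44 per Mb (0.938 to 8.81), an interval that holds 1.68 per Mb.

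Of the B cell genes, 4 of 6 bordering had distal sites (66.7%, 29.999 to 90.3), against 17.3% of all bordering genes. Their rate was 11.998 per Mb (5.75 to 22.1), against 1.68 per Mb for all genes. Bach2 and its 2 sites are counted here and among the haematopoietic transcription factors. Prdm1, a regulator of plasma cells that also acts in myeloid cells, had 5 with a highest score of 11.9. Bank1, a B cell adaptor gene, had 2, the higher of them 17.7. T and NK cell genes had them in 3 of 9 cases (33.3%, 12.1 to 64.6, which holds 17.3%), with 18.1 beside Ctla4 the highest. Growth factor receptor genes had them in 3 of 6 (18.8% to 81.2%), with 14.2 beside Ifngr1 the highest. Erythroid, megakaryocyte and mast cell genes had them in 2 of 3 (20.8% to 93.9%). Over all bordering genes the share was 17.3%. The growth factor receptor and erythroid lists rest on few genes, and Kit is counted in each. The intervals of their rates hold 1.68 per Mb. The lists from outside blood border more distal sequence in total, and they also have more bordering genes. Neuronal adhesion and synapse genes had 9 sites on 47.1 Mb, or 0.191 per Mb (0.0874 to 0.363), with 6 of 33 bordering genes nearest to one (18.2%), and their median score was 5.59. Developmental transcription factor genes had 11 on 18.4 Mb, or 0.598 per Mb (0.299 to 1.07), with 8 of 47 (17.0%). The rate over all gaps fell with their length, to 0.557 per Mb where a gap held over 1 Mb of distal sequence. The part of gap length in the rate of any list was not tested.

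**Figure D4:**
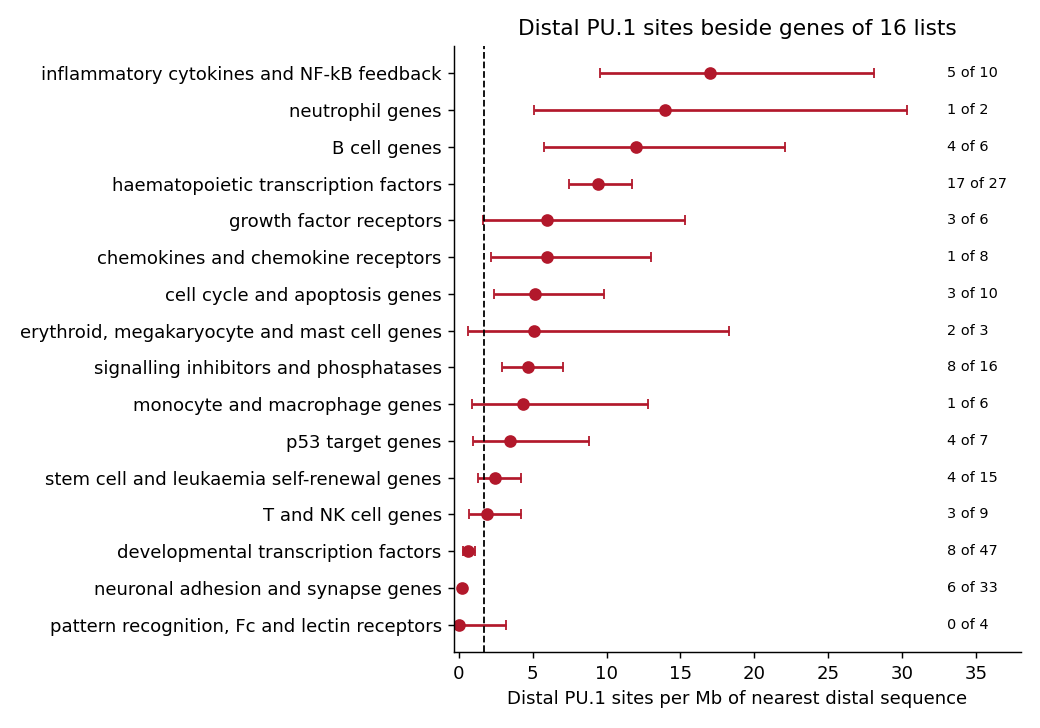
Distal PU.1 sites per Mb of the distal sequence nearest to the genes of each list (horizontal axis), with 95% Poisson intervals. The dashed line is the rate for all bordering genes (1.68 per Mb), and the counts at the right are bordering genes nearest to at least 1 distal site. Haematopoietic transcription factors (17 of 27) lie above the line with a narrow interval. The intervals of the inflammatory, B cell, neutrophil, signalling inhibitor, cell cycle and chemokine lists also lie wholly above it. The neutrophil and chemokine lists hold the same 6 Cxcr4 sites. The 2 Bach2 sites count in both the haematopoietic factor and the B cell list. The neuronal adhesion and developmental lists lie below the line. Gap length was not accounted for, and the intervals are no test of a list.

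Some distal sites were at noncoding genes, while 1025 (70.7%) were neither inside one nor within 1 kb of its end. Of the 1450, 375 (25.9%, Wilson interval 23.7 to 28.2) were inside a noncoding gene, most of them (346) in a long noncoding RNA gene, although such genes cover 13.5% of the distal sequence. Among sites outside genes at 1 to 50 kb the share was 17.7%, with 15.4% of that sequence covered. Within 1 kb of an end of a noncoding gene were 104 distal sites (7.17%, 5.95 to 8.62), against 2.91% of the distal sequence, a ratio of 2.46. For sites at 1 to 50 kb the share was 7.91%, against 6.02% of the sequence, a ratio of 1.31. The fall of the site rate with distance from protein-coding genes was not accounted for in these comparisons. The nearest such gene was a long noncoding RNA gene for 85 of the 104 and a pseudogene for 14. The median score of the 104 was 8.84, against 8.72 for the remaining distal sites.

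Among the highest scores within 1 kb of a noncoding gene end were 21.2 at the pseudogene Gm13691, 20.4 at Gm31828, 20.2 at Gm42266, 19.1 at 4933433H22Rik and 17.9 at Gm31542, the last 4 of them long noncoding RNA genes. Gm42266 starts within 49 bp of the summit 77.4 kb from Bach2, which also lies in the window of Gm52717. At 4933433H22Rik the summit was 15 bp from the gene end and 94.1 kb from Zfp36l2, the gene of an RNA-binding protein that promotes mRNA decay.

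Within 10 kb of a microRNA gene stood 4 distal sites, and 0 stood within 1 kb. The nearest, at chromosome 11, 43368546, scored 16.6 and lay 5.85 kb from Mir146, with Pttg1 the nearest protein-coding gene. miR-146a is a feedback inhibitor of Toll-like receptor and NF-kB signalling in myeloid cells. Its mature 5p strand is printed from RefSeq (GRCm38.p6) because the site lies beside it, at chr11:43374435-43374456 on the minus strand, with the seed (bases 2 to 8) in capitals.
mmu-miR-146a-5p: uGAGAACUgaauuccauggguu

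Distal sites came in tight groups about as often as others did. They did so at a lower density, 1.68 sites per Mb of distal sequence against 4.49 over all sequence. The shares below are not adjusted for this. A cluster was taken as 3 or more summits of any class with at most 12500 bp between neighbours. In such clusters were 231 distal sites (15.9%, Wilson interval 14.1 to 17.9), against 14.8% (14.1 to 15.5) of all other sites and 17.8% of sites outside genes at 1 to 50 kb. The median distance to the next site was 25.001 kb for distal sites and 21.6 kb for all others. Clustered distal sites had a median score of 8.64, against 8.76 for those that were not clustered. Of 79 clusters with a distal site, 60 consisted of distal sites throughout.

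The cluster with the most distal sites lay on chromosome 14 (61666014 to 61696617), with 6 sites 53.2 to 83.8 kb from Kcnrg, a potassium channel regulator gene. Their scores were 17.2, 10.4, 3.33, 12.1, 29.002 and 7.23 in order of position, and the third lay in the start window of the long noncoding RNA gene Dleu2. Next, 5 sites spanned 7.78 kb 109.6 to 117.4 kb from Tab2, the gene of an adaptor of the TAK1 kinase, with scores of 10.4, 14.7, 5.73, 1.44 and 20.4. Beside Dusp6, 5 of its 8 sites spanned 21.3 kb, with scores of 16.7, 11.2, 3.79, 9.57 and 5.22. In each of these clusters high and low scores stood side by side.

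Chromosomes differed in how many distal sites they carried. The share of a chromosome's sites that were distal ranged from 6.53% on chromosome 19 to 21.6% on chromosome 13, with a median of 13.96%. Per Mb of distal sequence, chromosome 10 had the most, 142 sites or 3.19 per Mb (2.68 to 3.76), followed by chromosome 13 with 2.83 (2.36 to 3.37) and chromosome 2 with 2.49 (2.08 to 2.96). Chromosome 7 had the least, 42 sites or 1.12 per Mb (0.807 to 1.51). The median score per chromosome ran from 7.96 on chromosome 11 to 9.77 on chromosome 6.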

How the data were processed

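The submitters' processing notes name mm10 as the genome build and, as tools, MACS2 and CASAVA 1.8.2. Not given in the sources used here are the aligner, read filters, MACS2 settings and the combining of libraries. Depth is unknown. The deposited values are the peak caller's −log10 p-value or q-value score per summit. From this list, 10920 of 11111 summits (chromosomes 1 to 19) were placed against 20665 protein-coding and 26377 other entries of the RefSeq gene table of GRCm38.p6. Distances run to the nearer gene end. Sequence lengths per class were counted exactly between the outermost gene ends. A strand was taken from the promoter table for 16457 protein-coding genes. Of 513 entries in 16 gene lists, 11 were not matched. Whether a site lay inside a gene, its distance and the sequence lengths were checked on simulated data. Promoter windows were checked by comparing overlapping windows of opposite strands. Genes named are those of the 10 highest-scoring and 5 farthest sites, the 5 fullest gaps, the 5 genes with most distal sites, the 3 sites on each side of the limit and up to 4 genes per list by highest score. Further names, GAGGAA, motif distances, strand sides, list rates and receptor segments were chosen after values were seen. Some genes that this rule names are not reported here. Members and lists were chosen with earlier results of these data known. No test was run, since there is 1 list without values per library. Python 3.11.15, pandas 2.3.3, scipy 1.17.1 and matplotlib 3.10.9 were used.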

Additional observations from a re-analysis of the deposited data

Results flagged for a closer look

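Chromosome X is used in none of the comparisons above, and its sites are given here for that reason. It held 25 sites outside genes and over 50 kb from a protein-coding gene end. They made up 13.4% of its 186 sites, with 0.321 per Mb of 77.9 Mb of distal sequence (95% Poisson interval 0.208 to 0.474), against 1.12 to 3.19 per Mb on single autosomes. Their median score was 6.98 and the highest 17.9.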

How the results depend on the processing

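The number of distal sites, 1450, became 2215 with a limit of 25 kb, 805 with 100 kb, 301 when genes of all biotypes counted and 573 at a minimum score of 10. Their share of 13.3% became 20.3% at 25 kb, 7.37% at 100 kb, 2.76% with all biotypes, 14.03% without clone and model gene names and 14.01% at a minimum score of 10. The rate relative to all sequence, 0.374, was 0.479 at 25 kb and 0.263 at 100 kb. It stayed below 1 under all 4 alternatives run for it. The difference of median scores, 0.28, was 0.075 at 100 kb and 0.14 at a minimum score of 5, and stayed above 0 under the 5 alternatives run. The share within 1 kb of a noncoding gene end, 7.17%, was 22.6% within 5 kb, 36.6% within 10 kb and 29.3% within 1 kb or inside. Clusters with gaps of 5 and 25 kb held 5.59% and 27.8% of distal sites in place of 15.9%. Bordering genes nearest to a distal site, 17.3%, became 27.0% with both flanking genes counted and 9.16% at a minimum score of 10. Each of these alternatives widens or narrows a window, a gene set or a score limit by construction. Since depth is unknown, sites missing from a desert were not detected and are not shown to be unbound. By its name the list sets PU.1 High against PU.1 Low, so sites bound alike in both groups may also be missing. No paired analysis was possible because the list holds no values per replicate, and no replicate could be left out.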

Other observations

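Antigen receptor loci count as gene-free here, since their segments are not protein-coding entries. Within 50 kb of such a segment lay 9 distal sites. In the immunoglobulin heavy chain locus, 1 stood 0.963 kb from Ighj4 (score 8.85) and 3 among the variable segments Ighv1-46, Ighv1-65 and Ighv1-81 (11.2, 12.01 and 6.98). In the T cell receptor loci, sites stood beside Trbv11 (13.2), Trbv24 (5.78), Trgj1 (9.77), Trav7-3 (9.13) and Trav22 (5.64).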
